A study of Mus musculus with 4 samples.

Results

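Cytosolic ribosomal protein genes were compared between ventricles that overexpress Cdk8 and wild-type ventricles. Members were the rows of the deposited expression table whose gene symbol begins with Rpl or Rps followed by a digit or the letter a, without the Rps6k kinases, symbols containing -ps, Rpl3 and Rpl3l. This symbol rule gave 81 of 23847 rows, 47 named for the large subunit (Rpl) and 34 for the small subunit (Rps). Of these, 79 reached a mean of at least 1 FPKM (fragments sequenced, scaled to transcript length and library depth) and were tested. Rpl10l was listed at 0 in all 4 libraries, and Rpl39l at 0.119 and 0 FPKM in Cdk8Tg and 0 and 0.415 FPKM in WT. The rule works on symbols, so it also took in Rps19bp1, which encodes a protein that binds Rps19 and is not itself part of the ribosome, and 7 paralogs. It left out the stalk proteins Rplp0, Rplp1 and Rplp2 and the ubiquitin-like fusion gene Fau, among others.

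The groups were Cdk8Tg mice, in which Cdk8 is overexpressed in the heart alone, and WT mice, with 2 libraries each. All were male, of the C57BL/6 background and 21 days old, and polyadenylated RNA from whole ventricle was sequenced. Neither the promoter that drives the transgene nor the number of transgenic lines is given in the sources used here. The labels do not say that the 2 libraries of a group came from separate mice, so the p-values cover the spread between libraries alone, which may be technical. Cdk8 stood at 7309 and 8122 FPKM in Cdk8Tg replicates 1 and 2 and at 7.89 and 9.86 FPKM in WT replicates 1 and 2, as labelled. Depth, estimated from the spacing of low FPKM values, was about 11.7 to 12.2 M (mega) fragments in Cdk8Tg and 13.5 to 13.7 M in WT, if FPKM were scaled to each library's own total, which is not stated.

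The cytosolic ribosome joins a small subunit, which reads the mRNA, to a large subunit, which forms the peptide bond and releases the chain through an exit tunnel. Each subunit is built in the nucleolus from ribosomal RNA and a fixed set of proteins, most of them needed in a single copy per ribosome, and surplus ribosomal proteins are degraded. Many of their mRNAs start with a run of pyrimidines, the 5' terminal oligopyrimidine or TOP tract, through which growth signalling by mTOR controls their translation, and in the heart ribosome synthesis is known to increase with growth.

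Most ribosomal protein mRNAs stood somewhat lower in Cdk8Tg ventricles on the deposited scale, by amounts that were small for each gene. Of the 79 tested members, 64 had a log2 change below 0 and 15 above 0. Their median log2 change was -0.19, with quartiles of -0.26 and -0.08, where the median of all 11888 genes tested was 0.13. Both Cdk8Tg libraries lay below both WT libraries for 54 members (68.4%), against 21.1% of all genes, and above both for 9 members, against 49.2% of all genes. The groups overlapped for the other 16 members. Such a gap was also common among other abundant genes. Of the 561 other genes with a mean of at least 100 FPKM, 317 lay below in both Cdk8Tg libraries and 149 above.

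Few of these differences passed the test. With limma on log2(FPKM + 1) and a Benjamini-Hochberg adjusted p under 0.05 over all genes, 8 members fell (10.1%), where 7.98% of all genes did, and 6 rose (7.59%), where 16.9% of all genes did. The share of members that fell was thus near the background. At an unadjusted p under 0.05, 27 members were lower, against 12.3% of all genes, and 7 were higher, against 29.4% of all genes. Without Cdk8Tg replicate 1 or 2 the member median was -0.15 or -0.19, beside 0.14 or 0.11 for all genes. Without WT replicate 1 or 2 it was -0.11 or -0.25, beside 0.14 or 0.12 for all genes. Each of these fits leaves a single library in a group, and calls were then fewer among the members and among all genes alike.

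**Figure D1:**
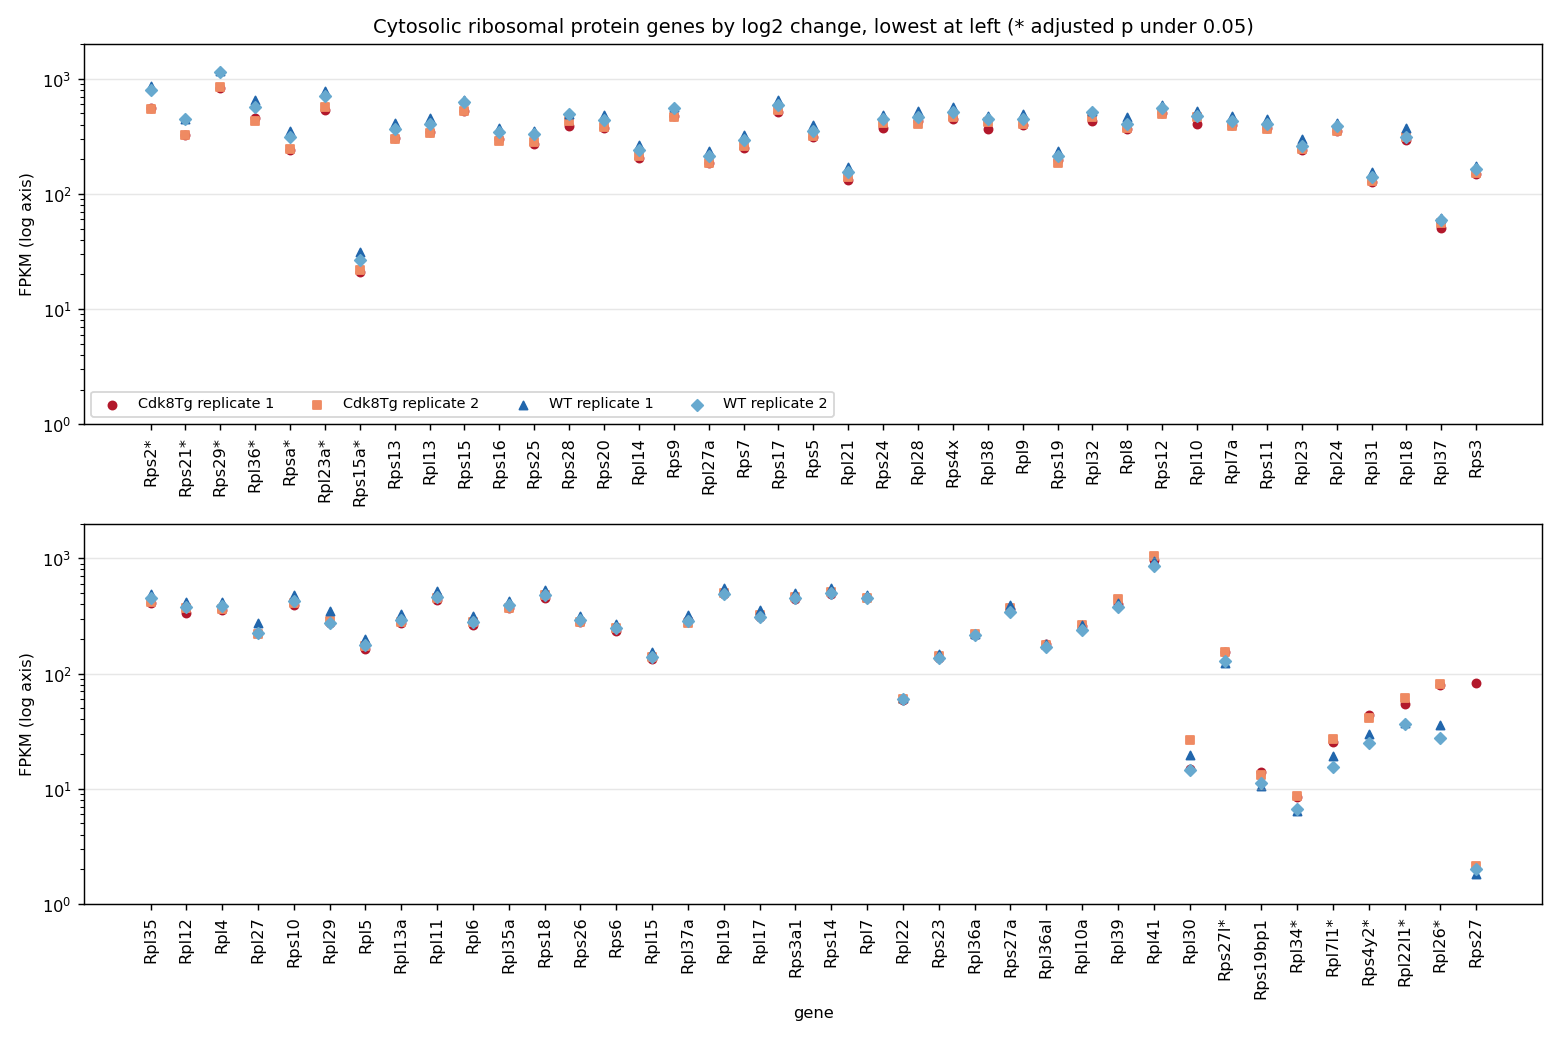
FPKM (log axis) of tested ribosomal protein genes in each of the 4 libraries, ordered by log2 change from the lowest (Rps2) to the highest (Rps27); an asterisk marks an adjusted p under 0.05 with limma. Red symbols are Cdk8Tg and blue symbols WT: most genes lie between 100 and 1000 FPKM with red just under blue, and the rises at the end of the lower panel are mostly genes under 100 FPKM.

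The direction of the members as a group depended on how the libraries were set on a common scale. Median-of-ratios scaling brought the median of all genes to 0.00 and gave a member median of -0.33. On that scale 33 members fell (41.8%), against 11.7% of all genes, and 4 rose, against 7.96% of all genes. Quantile normalization gave a member median of 0.05 beside 0.01 for all genes, with 2 falls, against 8.74%, and 7 rises, against 8.34%. An equal FPKM sum in every library moved the median of all genes to 0.30 and that of the members to 0.01, with 2 falls, against 5.49%, and 8 rises, against 41.2%. Relative to the median of all genes the members stood at -0.31 as deposited, -0.33 after median-of-ratios scaling, -0.29 with equal sums and 0.04 after quantile normalization.

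**Figure D2:**
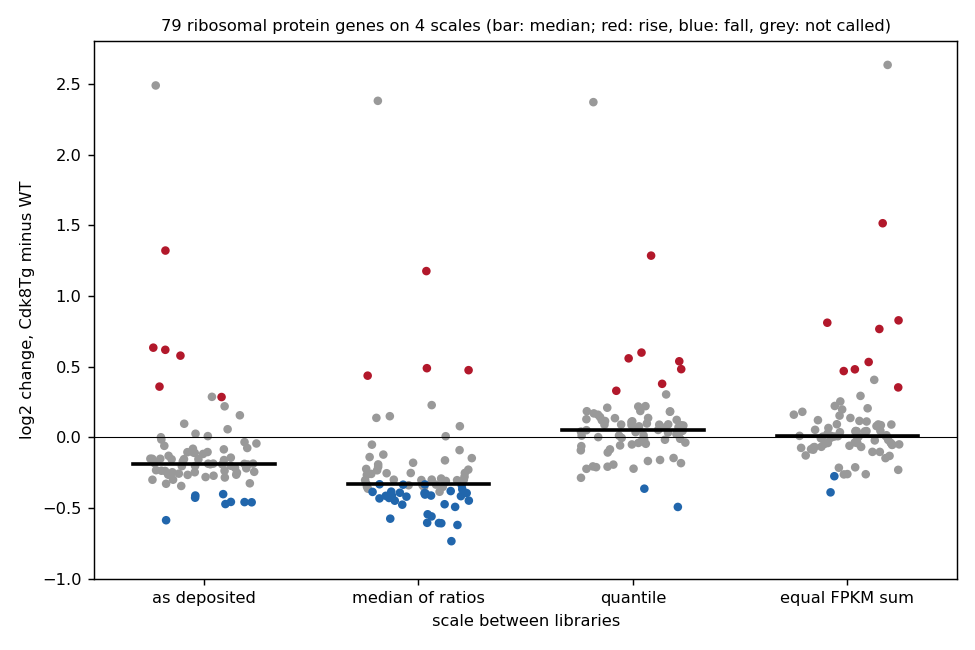
Log2 change (Cdk8Tg minus WT) of the 79 tested members on 4 scales, each point a gene and each bar the median: red points rose, blue points fell and grey points did not pass an adjusted p under 0.05. The median is -0.19 as deposited, -0.33 with median of ratios, 0.05 with quantile normalization and 0.01 with equal FPKM sums, so the side of 0 on which the members lie differs between scales.

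The same dependence appears in the share of all expression that the members took up. Member FPKM summed to 24101.5 and 24740.5 in Cdk8Tg replicates 1 and 2 and to 29329 and 26772 in WT replicates 1 and 2, so both Cdk8Tg sums were the lower. As a share of each library's FPKM sum, this made 5.37% and 5.62% for the Cdk8Tg libraries against 5.74% and 5.27% for the WT libraries. The shares overlapped between groups, and leaving Cdk8 out of the sums gave 5.46% and 5.72% beside 5.74% and 5.27%.

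The WT libraries also differed from each other in these genes. WT replicate 1 was above WT replicate 2 for 75 of the 79 members, with a median log2 difference of 0.14, where the median over all genes was 0.02. Between Cdk8Tg replicates 1 and 2 the median difference was -0.04. The 4 pairings of a Cdk8Tg with a WT library gave member medians of -0.27 and -0.22 against WT replicate 1 and of -0.12 and -0.08 against WT replicate 2. The spread between the WT libraries was therefore as large as the smaller of the differences between groups.

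Small-subunit names had the lower median, -0.24 over 34 genes with 5 falls and 2 rises. Large-subunit names had a median of -0.16 over 45 genes with 3 falls and 4 rises. Of all genes, 7.98% fell and 16.9% rose. The members also differed by level. Among the 73 tested members that are neither paralogs nor Rps19bp1, 66 had a mean of at least 100 FPKM, and of these 7 fell, 0 rose with limma (0 also at an unadjusted p under 0.05 and 0 in the authors' deposited table) and 61 lay below 0. The 7 below 100 FPKM had 1 fall and 2 rises. Across the 79 members, log2 mean FPKM and log2 change had a Spearman rho of -0.44 and a Pearson r of -0.59, a description over genes that share the same 4 libraries and that enter both measures.

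Other abundant genes had a similar median. The 561 other genes at 100 FPKM or more had a median log2 change of -0.21, close to the -0.20 of the 66 members at that level. Of those other genes 213 fell and 74 rose, so they spread further to both sides. The 325 of them with a transcript of at most 1000 bases, more like the short ribosomal protein mRNAs, had a median of -0.26. Over all 3573 other genes that short, at any level, the median was 0.10. Both Cdk8Tg libraries lay below both WT libraries for 317 of the 561, 201 of the 325 and 51 of the 66 members. They lay above both for 149, 74 and 1.

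**Figure D3:**
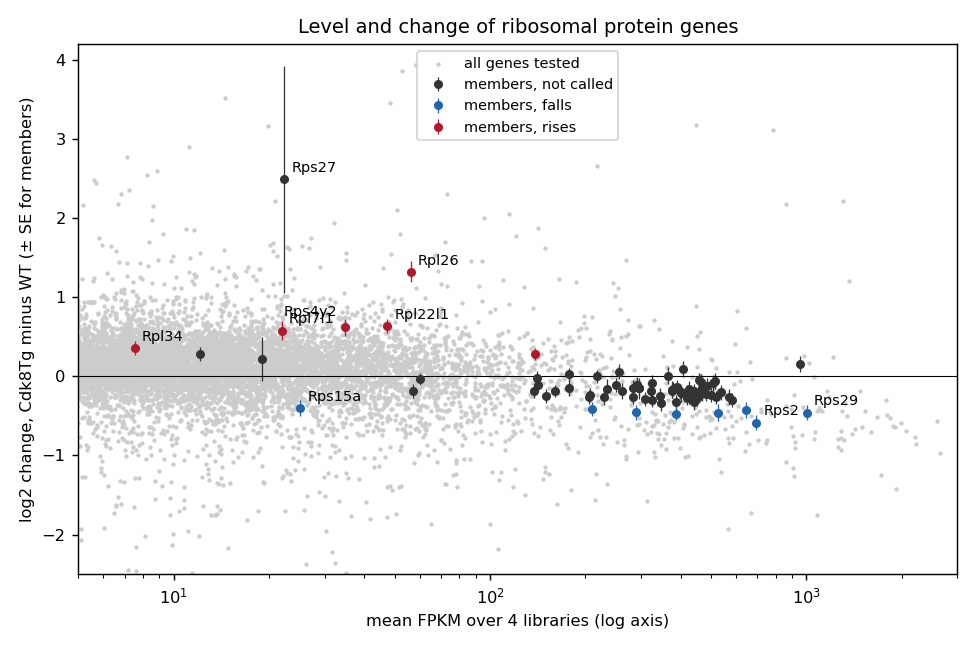
Mean FPKM over 4 libraries (log axis) against log2 change (Cdk8Tg minus WT) for all genes tested (grey) and ribosomal protein members with their SE (black: not called; blue: falls; red: rises); genes outside the axes are not drawn. Most members form a tight band just under 0 at 100 FPKM or more on this deposited scale, while called rises other than Rps27l sit under 100 FPKM.

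Of the 8 members that fell, 5 belong to the small subunit. Rps2, a protein on the side of the small subunit where mRNA enters, stood at 561 and 547 FPKM in Cdk8Tg and 859 and 805 FPKM in WT. Its groups were well apart, with a log2 change of -0.59 ± 0.09 (SE, n = 2 per group; limma, adjusted p = 0.014). Rps21 was at 323 and 323 FPKM in Cdk8Tg and 451 and 447 FPKM in WT, a change of -0.47 ± 0.08 (adjusted p = 0.017 with limma). The libraries of each group were nearly equal for this gene, so the gap between groups exceeded the spread within them many times.

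Rps29, a short zinc-binding protein of the small subunit and the member with the highest mean level, stood at 835 and 849 FPKM in Cdk8Tg and 1172 and 1144 FPKM in WT. Its log2 change was -0.46 ± 0.09 (adjusted p = 0.024 with limma), and the groups did not overlap. Rpsa, known both as a small-subunit protein and as a laminin-binding receptor, was at 241 and 244 FPKM in Cdk8Tg and 354 and 313 FPKM in WT. It changed by -0.46 ± 0.10 (adjusted p = 0.027 with limma), with WT replicate 2 nearer to Cdk8Tg than WT replicate 1. Rps15a was far lower in level, at 21.1 and 21.8 FPKM in Cdk8Tg and 31 and 26.4 FPKM in WT, and changed by -0.40 ± 0.10 (adjusted p = 0.043 with limma). It was the only member under 100 FPKM among the falls.

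Large-subunit genes made up the other 3 falls, among them Rpl36 and Rpl23a. Rpl36 stood at 457 and 429 FPKM in Cdk8Tg and 651 and 569 FPKM in WT, a log2 change of -0.46 ± 0.11 (adjusted p = 0.034 with limma). Rpl23a, which lies by the mouth of the exit tunnel, was at 533 and 567 FPKM in Cdk8Tg and 776 and 705 FPKM in WT, a change of -0.43 ± 0.10 (adjusted p = 0.035 with limma). In both genes the Cdk8Tg libraries lay below both WT libraries. Most of the sequence of Rpl36 and Rpl23a also occurs in other annotated genes: 94.1% and 89.8% of their 31-base stretches, so their counting is uncertain. The same holds for Rps2, the largest fall, with 62.2% of its stretches shared. Rps21, Rps29, Rpsa and Rps15a shared 7.29% to 45.3%.

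The 8 genes that fell kept a negative log2 change on all 4 scales, but 0 members were called as falls on all 4, where 5.14% of all genes were. After quantile normalization the calls that remained included Rps15a (-0.49), and with equal FPKM sums they were Rps2 (-0.39) and Rps21 (-0.27). All 8 were called after median-of-ratios scaling, Rps2 at -0.73 and Rps21 at -0.62.

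In the authors' deposited Cuffdiff table, which was scaled separately, 78 members were tested and 69 were lower in Cdk8Tg. Falls at a q-value under 0.05 numbered 10 in the authors' deposited table, where 8.43% of its genes fell, and rises numbered 0, where 5.53% rose. These 10 included Rps2, Rps21, Rps29, Rpl36 and Rps13. In the authors' deposited table Rps2 went from 1040 FPKM in WT to 620 FPKM in Cdk8Tg (q = 8.6e-04). By limma Rps13 was at -0.34 (adjusted p = 0.054), just short of the threshold.

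The paralogs moved the other way: 4 of the 5 tested rose with limma, where 16.9% of all genes did. Of these paralogs 0 fell with limma (0 also at an unadjusted p under 0.05 and 0 in the authors' deposited table). Their median log2 change was 0.58, where that of all genes was 0.13. Other genes at the levels of the paralogs were not compared with them. In general, paralogs are second genes for the same ribosomal position, usually of lower or more restricted expression. Among those that rose, however, Rpl7l1 acts in assembly of the large subunit and Rps4y2 is annotated as a pseudogene. Rpl22l1, the paralog of the large-subunit protein Rpl22, stood at 54.5 and 61.0 FPKM in Cdk8Tg and 37.5 and 36.2 FPKM in WT. Its groups did not overlap, and it changed by 0.63 ± 0.09 on the log2 scale (SE, n = 2 per group; limma, adjusted p = 0.011). Rpl22 itself was at 58.7 and 59.8 FPKM in Cdk8Tg and 60.8 and 60.5 FPKM in WT (log2 change -0.03, adjusted p = 0.75 with limma).

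A ratio of 2 genes within a library does not depend on a single scaling factor for that library, though quantile normalization can change it. The ratio of Rpl22l1 to Rpl22 was 0.929 and 1.02 in Cdk8Tg and 0.616 and 0.597 in WT, 1.60-fold higher in Cdk8Tg. By these FPKM, both Cdk8Tg libraries had about as much of the paralog as of the standard gene, and both WT libraries had less. The exact two-sided permutation p was 0.333, the smallest that 2 against 2 libraries allow. The near-equality was absent from the authors' deposited table, where Rpl22l1 lay well below Rpl22 in each group. For Cdk8Tg that table lists 29.6 against 66.1 FPKM, and for WT 21.9 against 75.5 FPKM. Why the 2 sets of values differ was not tested. Of Rpl22l1, 67.5% of the 31-base stretches occur in other genes, most of them in Gm15421, which was itself at 0.41 to 0.77 FPKM, and 0 of its stretches occur in Rpl22.

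Rpl7l1, which is related to Rpl7 and acts in assembly of the large subunit, was at 25.7 and 27.2 FPKM in Cdk8Tg and 19.3 and 15.6 FPKM in WT. Its groups did not overlap and its log2 change was 0.58 ± 0.12 (adjusted p = 0.026 with limma). The ratio of Rpl7l1 to Rpl7 was 0.0570 and 0.0605 in Cdk8Tg and 0.0405 and 0.0347 in WT, 1.57-fold higher (exact permutation p = 0.333). Rps4y2, named Rps4l in current annotation and listed there as a transcribed processed pseudogene, was at 43.6 and 41.2 FPKM in Cdk8Tg and 29.6 and 25.1 FPKM in WT. It changed by 0.62 ± 0.10 (adjusted p = 0.016 with limma), with all Cdk8Tg values above all WT values. Its ratio to Rps4x was 0.0966 and 0.0884 in Cdk8Tg and 0.0523 and 0.0485 in WT, 1.83-fold higher (exact permutation p = 0.333), while Rps4x was at -0.24 (adjusted p = 0.12 with limma).

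Rps27l, a paralog of the small-subunit protein Rps27 known as a target of p53, stood at 152.6 and 153.0 FPKM in Cdk8Tg and 122.7 and 127.8 FPKM in WT. It was just past the threshold at 0.29 ± 0.08 (adjusted p = 0.0497 with limma), and median-of-ratios scaling ended the call (0.14, adjusted p = 0.28). The call stayed after quantile normalization (0.33, adjusted p = 0.038 with limma) and with equal sums (0.48, adjusted p = 0.0097 with limma). Rpl36al did not differ beyond the spread of its libraries: it was at 180 and 178 FPKM in Cdk8Tg and 181 and 171 FPKM in WT, and its ratio to Rpl36a was 0.834 and 0.812 against 0.817 and 0.802 (exact permutation p = 0.667). The remaining paralogs were Rpl10l and Rpl39l, at or near 0 in all libraries.

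Rpl22l1, Rpl7l1 and Rps4y2 were, with Rpl26, the 4 members called as rises on all 4 scales, where 7.08% of all genes were. The authors' deposited table gave the same direction without a call: Rpl22l1 went from 21.9 to 29.6 FPKM (q = 0.38), Rpl7l1 from 22 to 29.6 FPKM (q = 0.11) and Rps4y2 from 34.7 to 48.3 FPKM (q = 0.67). Without WT replicate 1 the calls of Rpl7l1 and Rps4y2 remained and that of Rpl22l1 was lost, and without WT replicate 2 the calls of all 3 were lost.

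Rpl26 had the largest called rise, and a copy of the gene elsewhere in the genome has a row of its own. Rpl26 is a large-subunit protein by the exit tunnel that also binds the mRNA of p53. Its row stood at 79.1 and 81.7 FPKM in Cdk8Tg and 35.9 and 27.8 FPKM in WT, a log2 change of 1.32 ± 0.13 (SE, n = 2 per group; limma, adjusted p = 0.0058). These levels were low for a ribosomal protein, and the table holds a second row, Gm15772, annotated as a processed pseudogene (chr5:3236431-3236868 of GRCm38), that shares 45.9% of the 31-base stretches of Rpl26. Gm15772 was at 425 and 468 FPKM in Cdk8Tg and 549 and 494 FPKM in WT.

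Added together, Rpl26 and Gm15772 came to 505 and 550 FPKM in Cdk8Tg and 585 and 521 FPKM in WT. The sums overlapped between groups, the log2 change turned to -0.07 ± 0.11 and the call was lost (adjusted p = 0.65 with limma). The rise of Rpl26 therefore holds for the row as deposited and not for the row with its copy. Whether fragments were shared out differently between the rows was not tested.

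Rps27 and Rpl30 had such copies too, and these 3 were all the members for which a row outside the rule held at least 20% of the stretches at a level above the member's own. Rps27, a zinc-binding protein of the small subunit, was listed at 83.5 FPKM in Cdk8Tg replicate 1 and at 2.14, 1.81 and 2.00 FPKM in Cdk8Tg replicate 2 and the WT libraries. A single library thus set its log2 change of 2.49 ± 1.43 (adjusted p = 0.24 with limma), and the low values rested on about 8.4 to 9.4 fragments by the depth estimate. Its copy Gm9846, now named Rps27rt and annotated as protein-coding (chr9:114982366-114982739), shares 49.8% of the stretches and stood at 548 and 663 FPKM in Cdk8Tg and 891 and 765 FPKM in WT.

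The sum of Rps27 and Gm9846 was 632 and 665 FPKM in Cdk8Tg and 892 and 767 FPKM in WT. In the sum Cdk8Tg replicate 1 no longer stood apart, both Cdk8Tg libraries lay below both WT libraries, and the change was -0.35 ± 0.11 (adjusted p = 0.073 with limma). Rpl30 was among the 3 tested members of lowest level, at 14.8 and 26.7 FPKM in Cdk8Tg and 19.7 and 14.6 FPKM in WT, with overlapping groups. Its copy Gm12191, a processed pseudogene (chr11:49678710-49679057), was at 356 and 368 FPKM in Cdk8Tg and 469 and 440 FPKM in WT.

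The sum for Rpl30 was 371 and 395 FPKM in Cdk8Tg and 489 and 455 FPKM in WT, a change of -0.30 ± 0.09 (adjusted p = 0.067 with limma) where Rpl30 alone was at 0.22. With these 3 sums in place of the single rows, the members had 8 falls and 5 rises and a median of -0.19. After median-of-ratios scaling the sums gave 35 falls and 3 rises, and the sums for Rps27 (-0.50, adjusted p = 0.033) and Rpl30 (-0.45, adjusted p = 0.026) were among the falls.

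**Figure D4:**
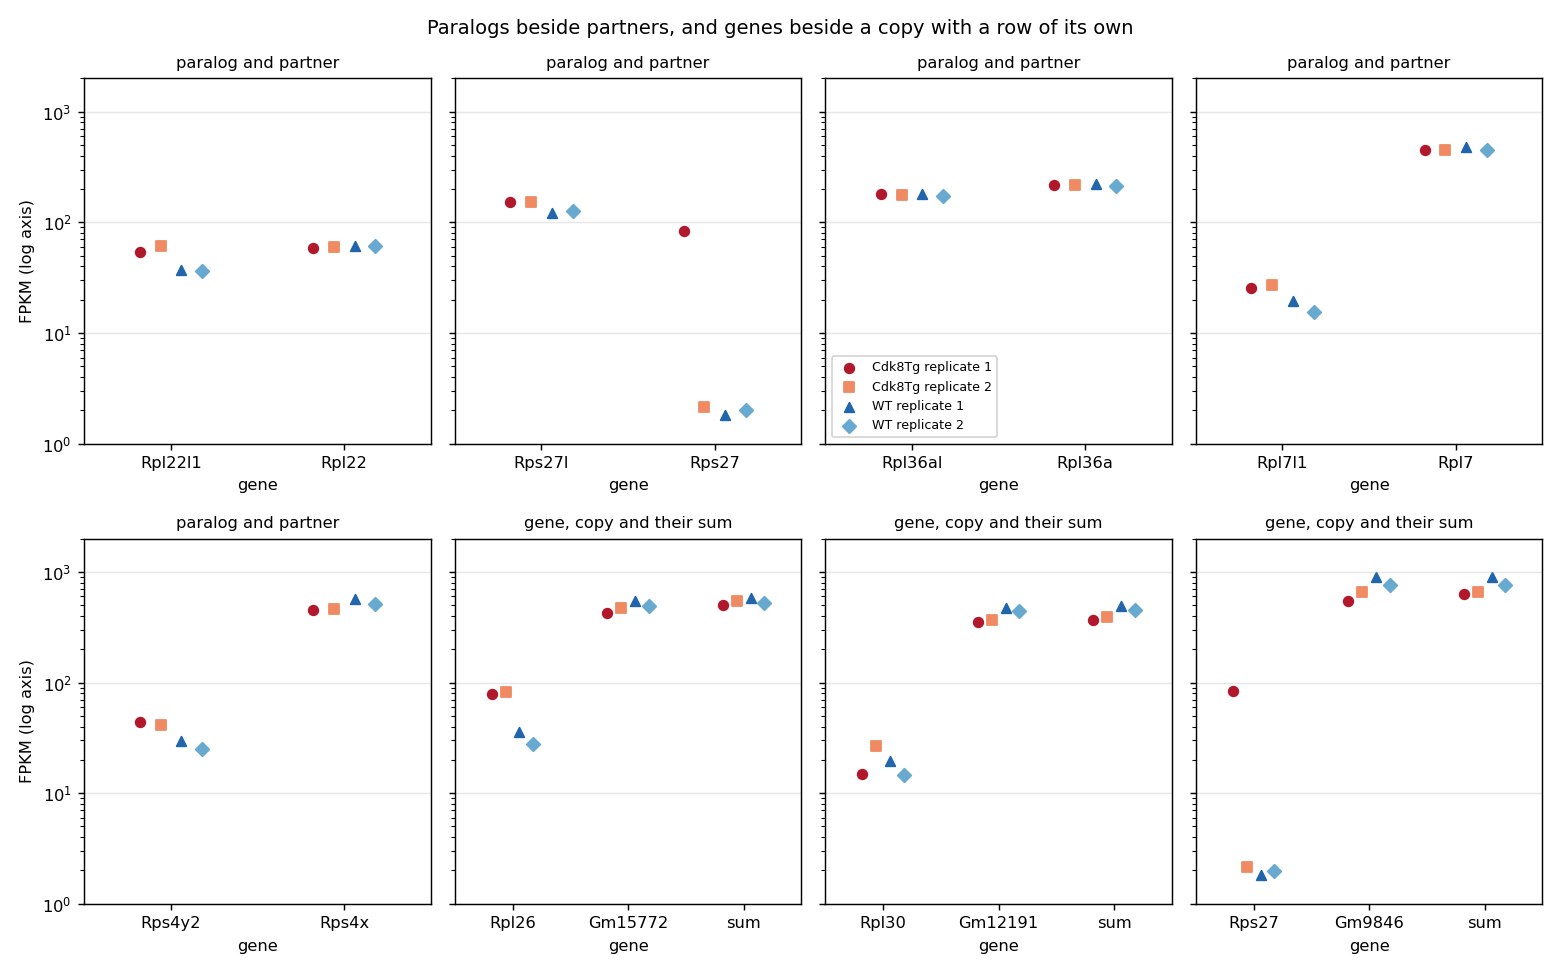
FPKM (log axis) in each of the 4 libraries for 5 paralogs beside their partner genes, and for Rpl26, Rpl30 and Rps27 beside the copy that has a row of its own and the sum of both rows. Rpl22l1, Rpl7l1 and Rps4y2 are higher in Cdk8Tg (red) than in WT (blue) while their partners are not; the red values of Rpl26 lie above the blue ones but those of its sum (505 and 550 against 585 and 521 FPKM) do not.

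Rpl34, the tested member of lowest mean level, was at 8.55 and 8.63 FPKM in Cdk8Tg and 6.35 and 6.61 FPKM in WT. It rose by 0.36 ± 0.09 on the log2 scale (adjusted p = 0.038 with limma), on about 53.6 to 65.1 fragments per library, and lost the call after median-of-ratios scaling (0.23, adjusted p = 0.13) and quantile normalization (0.21, adjusted p = 0.15). Rps19bp1, second lowest, stood at 13.9 and 13.0 FPKM in Cdk8Tg and 10.5 and 11.2 FPKM in WT, apart by group but short of the threshold (0.29 ± 0.09, adjusted p = 0.066 with limma). At the other end, Rpl41, whose product is the shortest ribosomal protein, was at 973 and 1042 FPKM in Cdk8Tg and 946 and 863 FPKM in WT. Unlike Rps29, it had the higher values in Cdk8Tg, at 0.16 ± 0.10 (adjusted p = 0.30 with limma). On the deposited scale this difference did not pass the test, and after median-of-ratios scaling it was 0.0079. It was called as a rise after quantile normalization (0.54, adjusted p = 0.042 with limma) and with equal sums (0.35, adjusted p = 0.036 with limma).

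Most members not called by limma on the deposited scale had small changes, with Rps27 (2.49) far from the rest. Rps13, Rpl13 and Rps15 were among the lowest of them, at -0.34 to -0.30, with both Cdk8Tg libraries below both WT libraries in each. Rpl13, for example, was at 346 and 339 FPKM in Cdk8Tg and 455 and 406 FPKM in WT (adjusted p = 0.059 with limma). Rps23 (-0.02), Rpl36a (0.00) and Rps27a (0.01), which encodes a ubiquitin fusion, were among those nearest to 0. Rps6, the small-subunit protein phosphorylated by S6 kinase, was at 235 and 246 FPKM in Cdk8Tg and 270 and 248 FPKM in WT (-0.11, adjusted p = 0.40 with limma), with the higher Cdk8Tg value just under the lower WT value.

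Overlap of sequence with other genes was common among the members. A median of 45.3% of a member's 31-base stretches occurred in transcripts of other genes, from 0% to 99.0%, and 33 tested members shared over 50%. Those 33 had a median log2 change of -0.17 with 3 falls and 2 rises, and the other 46 had -0.19 with 5 falls and 4 rises. Falls made up 7.98% and rises 16.9% of all genes. Across the 79 members the Spearman rho between shared percentage and log2 change was -0.03.

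Start sites are shown for genes that fell or rose, because TOP tracts are the best-known feature that these mRNAs share. Each is the 30 bases around the start in RefSeq, 15 on either side, read 5′ to 3′ on the strand of the gene. Capitals mark a run of at least 7 C or T bases that begins with C; Rps2, Rpsa, Rpl26 and Rpl7l1 hold none in this window.
Rps21: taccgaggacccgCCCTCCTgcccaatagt
Rps15a: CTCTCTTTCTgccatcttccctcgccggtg
Rps2: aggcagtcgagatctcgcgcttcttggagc
Rpsa: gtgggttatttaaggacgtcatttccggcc
Rpl22l1: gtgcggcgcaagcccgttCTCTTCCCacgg
Rps27l: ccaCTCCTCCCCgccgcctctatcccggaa
Rpl26: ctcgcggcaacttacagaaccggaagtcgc
Rpl7l1: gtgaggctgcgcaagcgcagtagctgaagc

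In the RefSeq build GRCm38.p6 these lie at chr2:180257364-180257393 on the plus strand (Rps21), chr7:118116133-118116162 on the minus strand (Rps15a), chr17:24720048-24720077 on the plus strand (Rps2) and chr9:120127751-120127780 on the plus strand (Rpsa). Those of the genes that rose are at chr3:28805493-28805522 (Rpl22l1, plus strand), chr9:66946071-66946100 (Rps27l, plus strand), chr11:68901551-68901580 (Rpl26, plus strand) and chr17:46782642-46782671 (Rpl7l1, minus strand). Rps21 and Rps27l have a second annotated start without such a run. Both falls and rises thus included genes with and without the run.

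Of the 81 members, 62 had a promoter window in the RefSeq table. The pyrimidine run lay within 15 bases of an annotated start, on either side, in 31 of them (50%), against 16.4% of all 27025 genes. In some, such as Rps15a and Rps27l, it lies wholly before the annotated start, so an mRNA from that start would not begin with it. Tested members with the run had a median log2 change of -0.17 (30 genes, 2 falls, 3 rises). Those with a window and no run had -0.18 (30 genes, 2 falls, 2 rises), where 7.98% of all genes fell and 16.9% rose. In the whole windows, from 250 bases before to 50 after the start and on both strands, ACTTCCGG, a motif of ETS factors, occurred in 12 members (19.4%, against 4.31% of all genes). AAGATGGC, a motif of YY1, occurred in 6 members (9.68%, against 3.19%), and the GC box GGGCGG in 39 (62.9%, against 38.2%). TATAAA occurred in 6 members (9.68%), against 15.7% of all genes.

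The ribosome components outside the symbol rule had a median log2 change of -0.37. With limma 4 of 6 fell, against 7.98% of all genes, and 0 rose (0 also at an unadjusted p under 0.05), against 16.9%. The falls numbered 5 after median-of-ratios scaling, where 11.7% of all genes fell. They numbered 0 both after quantile normalization and with equal sums, where 8.74% and 5.49% of all genes fell. Rplp0, which anchors the stalk that recruits translation factors, was at 443 and 421 FPKM in Cdk8Tg and 613 and 565 FPKM in WT (-0.45 ± 0.09, adjusted p = 0.027 with limma). Rplp2 was at 249 and 241 FPKM in Cdk8Tg and 322 and 308 FPKM in WT (-0.36, adjusted p = 0.033 with limma). Rplp1 (-0.37, adjusted p = 0.040) also fell with limma. It turned to 0.0025 after quantile normalization, and on that scale the median of the list was -0.02.

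Other mRNAs known for a TOP start did not fall together: of 13, 2 fell (15.4%) and 1 rose (7.69%), where 7.98% and 16.9% of all genes did. The median of the list was -0.05 (0.07 after quantile normalization and 0.15 with equal sums). Median-of-ratios scaling gave 4 falls and 1 rise, against 11.7% and 7.96% of all genes. Equal sums gave 0 falls and 4 rises, against 5.49% and 41.2% of all genes. Eef1a1, the elongation factor that brings aminoacyl-tRNA to the ribosome, was at 1882 and 1914 FPKM in Cdk8Tg and 907 and 747 FPKM in WT. It rose by 1.20 ± 0.13 (adjusted p = 0.0065 with limma), and 66.2% of its stretches occur in other genes. Its exchange factor subunits Eef1d (-0.43, adjusted p = 0.022) and Eef1b2 (-0.33, adjusted p = 0.0496) fell with limma.

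The machinery that makes ribosomes had medians near that of all genes. Of 44 nucleolar processing and assembly factors (median 0.17) 7 rose (15.9%) and 2 fell (4.55%), where 16.9% and 7.98% of all genes did. After median-of-ratios scaling 4 rose and 3 fell, against 7.96% and 11.7% of all genes. With equal sums 25 rose and 1 fell, against 41.2% and 5.49% of all genes. Bop1, needed to mature large-subunit RNA, was at 15.2 and 16.8 FPKM in Cdk8Tg and 10.3 and 8.79 FPKM in WT (0.69, adjusted p = 0.014 with limma), and Rrp1 (0.53) and Imp4 (0.54) rose too. Rrs1, an assembly factor of the large subunit, was at 6.00 and 5.17 FPKM in Cdk8Tg and 8.83 and 9.87 FPKM in WT and fell (-0.65, adjusted p = 0.017 with limma).

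Of 16 genes of RNA polymerase I and its factors, 1 rose (6.25%) and 0 fell with limma, where 16.9% and 7.98% of all genes did. The median of the list was 0.13. The rise was Rrn3, the factor that takes the polymerase to its promoter, at 19.3 and 20.4 FPKM in Cdk8Tg and 14.3 and 15.2 FPKM in WT (0.40, adjusted p = 0.027 with limma). Its call was lost after median-of-ratios scaling (adjusted p = 0.084 with limma) and quantile normalization (0.069). With equal sums 7 of the 16 genes rose, where 41.2% of all genes did. Polr1a, the largest polymerase subunit, was at -0.26 (unadjusted p = 0.037; adjusted p = 0.099 with limma). Among 19 genes of growth signalling, the S6 kinases Rps6kb1 (0.44, adjusted p = 0.025) and Rps6kb2 (0.38, adjusted p = 0.035) rose with limma. The translational repressor Eif4ebp1 (-0.43, adjusted p = 0.038) and the cap-binding protein Eif4e (-0.29, adjusted p = 0.047) fell with limma, and the median was 0.12. Thus 10.5% of the list rose and 10.5% fell, where 16.9% and 7.98% of all genes did. Neither kinase kept its call after median-of-ratios scaling or quantile normalization. The list had 0 rises and 6 falls on the former scale, 0 and 3 on the latter, and 8 and 0 with equal sums. Rises and falls made up 7.96% and 11.7% of all genes on the former scale and 8.34% and 8.74% on the latter. With equal sums they made up 41.2% and 5.49%.

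Mitochondrial ribosomal proteins are encoded in the nucleus for a separate ribosome. They had the same median as the cytosolic ones on the deposited scale, -0.19. Of 76, 21 fell (27.6%) and 3 rose (3.95%), where 7.98% and 16.9% of all genes did. With equal sums 13 fell and 12 rose, against 5.49% and 41.2% of all genes. The median of the mitochondrial list stayed at -0.22 after quantile normalization, where that of the cytosolic members was 0.05, and was -0.0027 with equal sums. Their changes were the more spread, from Mrpl23 (-1.10) and Mrpl42 (-1.02) to Mrps6 (0.77). Translation initiation factors had a median of 0.09. Of 58, 7 rose (12.1%) and 2 fell (3.45%), where 16.9% and 7.98% of all genes did. Those counts for the list were 2 and 9 after median-of-ratios scaling, against 7.96% and 11.7% of all genes. After quantile normalization they were 3 and 3, against 8.34% and 8.74% of all genes. With equal sums they were 25 and 0, against 41.2% and 5.49% of all genes. The differences between these lists were not tested.

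**Figure D5:**
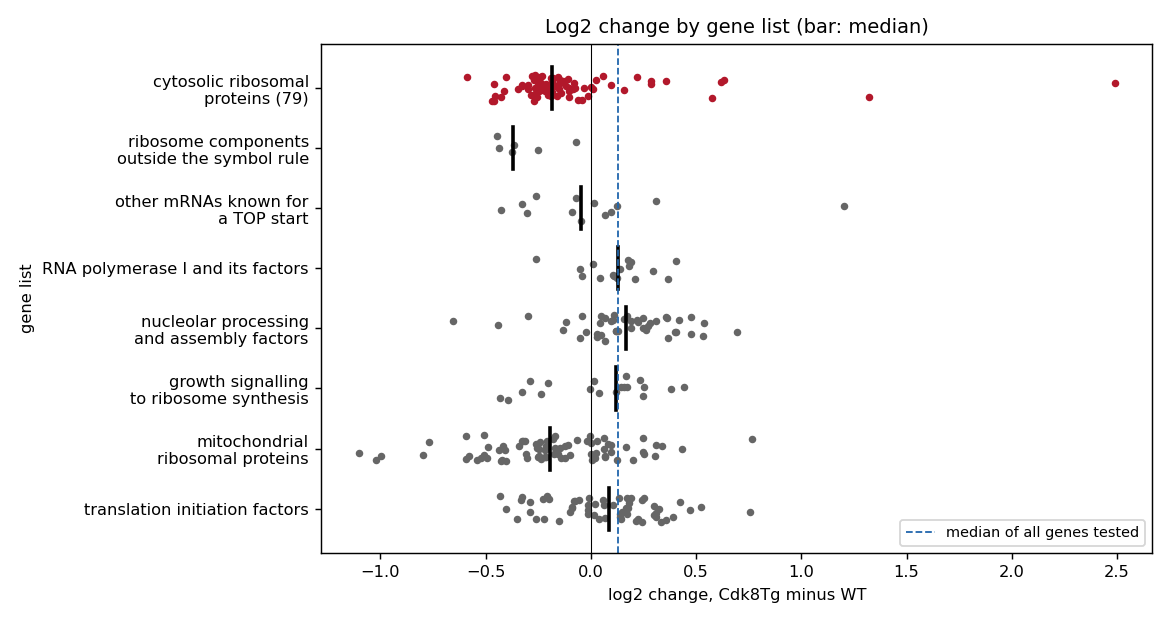
Log2 change (Cdk8Tg minus WT, deposited scale) of each tested gene in the cytosolic ribosomal protein set (red) and 7 other lists (grey), with bars at the medians and a dashed line at the median of all genes tested (0.13). The cytosolic set has a median of -0.19; after quantile normalization its median is 0.05.

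In bulk tissue, fewer cells of a type and less RNA per cell cannot be told apart. Markers of the ventricular cardiomyocyte identified the tissue in every library, Myl2 at 10760 to 15873 FPKM. Of 6 such markers 4 fell and 0 rose with limma (5 and 0 at an unadjusted p under 0.05), and their summed level was 33246 to 34473 FPKM in Cdk8Tg and 45922 to 48118 FPKM in WT. Their median log2 change was -0.59. After quantile normalization it was -0.07 with 1 rise and 1 fall, against 8.34% and 8.74% of all genes. Of 6 fibroblast markers 4 rose and 0 fell with limma (6 and 0 at an unadjusted p under 0.05), with sums of 917 to 1168 FPKM in Cdk8Tg and 714 to 777 FPKM in WT. Of all genes, 16.9% rose and 7.98% fell with limma. Leukocyte markers had 1 fall, Csf1r, among 4 tested of 6, with sums of 20.4 to 24.4 FPKM in Cdk8Tg and 30.8 to 33.7 FPKM in WT, and Cd3e at 0 in 1 Cdk8Tg library.

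Of 4 atrial markers 1 rose, Nppa, and 0 fell with limma (1 and 0 at an unadjusted p under 0.05), with sums of 861 to 2416 FPKM in Cdk8Tg and 225 to 670 FPKM in WT. Nppa, at 780.0 and 2072 FPKM in Cdk8Tg and 395 and 199 FPKM in WT, made up most of these sums in each library. Of the others, Myl4 was at 72.5 and 281 FPKM in Cdk8Tg and 94.3 and 11.7 FPKM in WT. Myl7 (-0.88, adjusted p = 0.63 with limma) and Sln (-1.69, adjusted p = 0.43 with limma) had lower fitted values in Cdk8Tg without passing the test. Endothelial, smooth muscle, erythroid and dividing-cell markers had 0 calls with limma. At an unadjusted p under 0.05 there were 0 of 6, 1 of 5, 0 of 7 and 1 of 5. Sums over the endothelial markers were 960 to 1100.4 FPKM in Cdk8Tg and 1168 to 1225 FPKM in WT, and those over the 7 erythroid rows were 3746 to 5301 FPKM and 5154 to 7730 FPKM. The part of these markers in the ribosomal protein values was not tested.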

How the data were processed

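Polyadenylated RNA of ventricle was sequenced from stranded libraries, per the labels' protocols, and reads were aligned to mm10 with TopHat 1.0.0 and passed to Cufflinks and Cuffdiff, per the submitters' processing notes. The versions of the last 2 tools, the annotation, the strand setting and the scale between libraries do not appear in the sources used here. The first table holds the authors' FPKM for each gene in each library. The second table holds FPKM, p-values and q-values from the authors' own Cuffdiff comparison, per the file headers.

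FPKM are not counts, so limma 3.58.1 (R 4.3.3) was run on log2(FPKM + 1) over all 4 libraries without covariates, with a variance prior that followed the level (trended empirical Bayes) and 2 degrees of freedom left for the spread. Rows with a mean of at least 1 FPKM were tested, and adjusted p-values (Benjamini-Hochberg over 11888 genes) under 0.05 were called. The log2(FPKM + 1) scale understates changes of low genes. The procedure was tested on simulated data with log2 changes of 1 or 2 and no difference of scale between libraries. That test does not cover changes as small as most of those called among the members, or the choice of scale. Groups and replicate numbers came from the sample titles. No interval is given for depth, which was estimated.

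Members and lists were chosen with earlier results of these data known, so no p-value is given for a list. Named genes were Cdk8, the called members, the 3 highest and 3 lowest members, the paralogs with their partners and up to 4 genes per list by smallest p. The other members named, among them Rps13, Rpl13, Rps15, Rps6, Rps23 and Rps27a, and further genes that stand for a count, such as Csf1r and the atrial markers, were chosen after their values were seen. Shared sequence was counted as 31-base stretches found on either strand in other genes of GENCODE M21 (GRCm38). Adding copies to members was chosen after seeing the data. Start sites come from RefSeq, GRCm38.p6. Values of some genes are not reported here.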

Additional observations from a re-analysis of the deposited data

How the results depend on the processing

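The members had 6 rises, 8 falls and a median log2 change of -0.19, and all genes 2009 rises and 949 falls. With no filter on low values, limma called 0 rises and 0 falls among the members (7 and 23 at an unadjusted p under 0.05), and 170 and 109 among all genes. Median-of-ratios scaling gave 33 falls, a member median of -0.33 and 946 rises over all genes. Quantile normalization gave 2 falls, a median of 0.053 and 992 rises over all genes. Equal FPKM sums gave 2 falls, a median of 0.011 and 4899 rises over all genes, and without Cdk8 in the sum 10 rises, 2 falls, a median of 0.036, and 5376 rises and 623 falls over all genes. The authors' deposited table gave 0 rises, a median of -0.35 and 685 rises over all genes. The 46 members with at most 50% of stretches shared had 5 falls. Leaving out each library in turn, with 1 residual degree of freedom and the lone library assumed to vary like the other group, gave 1 to 4 rises, 0 to 6 falls and a median of -0.25 to -0.11 among the members, and 145 to 1531 rises and 142 to 849 falls over all genes. With copies summed on the deposited and the median-of-ratios scale, chosen after seeing the data, the latter gave 3 rises, 35 falls, a median of -0.33 and 949 rises over all genes.

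Replicate numbers are shared between groups, and the sample titles state no pairing. Deviations of same-numbered libraries correlated at -0.0256. With 2 libraries a group this is a single value, which cannot show whether the libraries were paired. With the replicate block the members had 4 rises and 6 falls, and all genes 1855 and 970.

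Many members turned after quantile normalization and with equal sums, where the member medians were 0.053 and 0.011. Rpl10a and Rps27a turned after median-of-ratios scaling (-0.09 and -0.14) and were lower in Cdk8Tg in the authors' deposited table. The turns listed next are only those of the genes named by the rule given above. Copies summed, on the deposited and the median-of-ratios scale, turned Rpl26 to -0.069 and -0.22, Rpl30 to -0.30 and -0.45 and Rps27 to -0.35 and -0.50. Median-of-ratios scaling turned Rpl36al (-0.12), Rpl36a (-0.15) and Rpl39 (-0.052), and the authors' deposited table turned the same genes to -0.13, -0.16 and -0.057. Quantile normalization turned Rpl10 (0.084), Rpl7 (0.22), Rps4x (0.024) and Rplp1 (0.0025). Equal sums turned Rpl22 (0.16) and Rpl7 (0.15), and equal sums without Cdk8 turned Rpl22 (0.19), Rpl7 (0.18) and Rpl10 (0.020). Leaving out each library in turn gave -0.18 to 0.62 for Rpl30, -0.012 to 0.064 for Rpl36al, -0.024 to 0.026 for Rpl36a and -0.087 to 0.000391 for Rpl7. Apart from the scale and the copies, the cause was not tested.

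Of the 13 called members named here, 12 kept the call at a pseudocount of 0.1 and 12 at 5, 13 at a minimum of 5 FPKM, 11 without a variance trend and 12 with robust variance. With no filter 0 kept it, after median-of-ratios scaling 11, after quantile normalization 6, with equal sums 8 and with the replicate block 9. Without Cdk8Tg replicate 1 or 2 it was 8 and 7, without WT replicate 1 it was 3, and without WT replicate 2 it was 1. With 2 libraries a group, precision is limited, most of all for genes of few fragments such as Rpl34 and Rps27.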
